A study of Caenorhabditis elegans with 24 samples.

Results

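The genes described here are 8 genes of cap-dependent translation and its repression in Caenorhabditis elegans, chosen by gene symbol from the 46926 genes listed in the deposited tables. They are the 5 genes of the cap-binding protein eIF4E (ife-1, ife-2, ife-3, ife-4 and ife-5) and 3 genes of repressive messenger ribonucleoproteins (ifet-1, cgh-1 and car-1). Not all are known only from the germline, as ife-2 has a known role in somatic tissue and ife-4 is known from neurons and muscle. All 8 were found, and all 8 had means of at least 10 normalized counts in both temperature sets. RNA was taken from whole worms, synchronized and collected as young adults, and depleted of ribosomal RNA before strand-specific sequencing. There were 3 libraries for each of 4 genotypes at 26 °C and at 20 °C, or 24 libraries in 8 groups. In 3xFG, the phenylalanine-glycine repeats of the germ granule helicases GLH-1, GLH-2 and GLH-4 were changed, in a strain whose Argonaute WAGO-4 carries 3xFLAG and GFP. WAGO-4(Y611E) carries the same tags on a WAGO-4 protein with an amino acid exchange meant to stop small RNA binding. WAGO-4 KO lacks WAGO-4, and its label names no tag. WT is the strain with 3xFLAG and GFP on an otherwise unchanged WAGO-4.

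An mRNA is translated once eIF4E has bound its cap and the scaffold eIF4G has bound eIF4E. Nematodes have several eIF4E genes and also an unusual supply of caps, since many of their mRNAs receive a trimethylated cap by trans-splicing and others keep the common monomethylated cap. In the germline many mRNAs are made long before they are used, and they are kept silent by proteins that hold eIF4E away from eIF4G or pack the mRNA into granules. Proteins of the IFE family are known from both translated and repressed mRNAs.

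The values used were pooled. For each gene the tables hold a mean normalized count over the libraries of a fit, and the same mean was repeated in every table of that fit. There was a set of 3 tables for 26 °C, a set of 3 for 20 °C and a set of 4 for both temperatures together. The 26 °C and 20 °C means each cover all 4 genotypes, so that the genotypes cannot be told apart in them. The contrasts of each mutant with WT are given in the tables as finished comparisons only, which were not used, and a mutant effect on these genes was not analysed here. No value below has an SD, and no difference between the sets was tested against replicate error. The means summed to 28460281 at 26 °C and 30474128 at 20 °C, and the 8 genes took 0.409% and 0.593% of these sums.

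The 8 genes differed widely in level (the plot of levels per kilobase by gene). Levels of different genes were compared as mean normalized counts per kilobase of the longest annotated transcript. The helicase gene cgh-1 stood first, followed by car-1, ifet-1, ife-3, ife-1, ife-2, ife-5 and ife-4, and this order was the same at 26 °C and at 20 °C. cgh-1 reached 23545 per kilobase at 26 °C and 37780 at 20 °C. ife-4 had 155 at 26 °C and 139 at 20 °C. The median protein-coding gene had 53.7 at 26 °C and 41.0 at 20 °C, so that every one of the 8 lay above it in both sets. With no spread between libraries, it cannot be said which neighbours in this order differ, and ife-1 and ife-2 lay within 3% of each other at 26 °C (ratio of ife-2 to ife-1, 0.974).

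**Figure D1:**
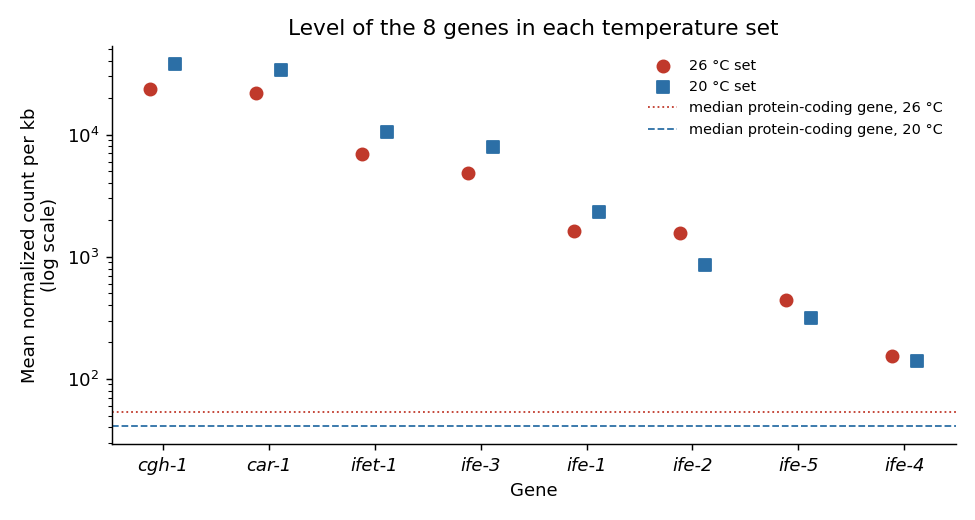
Level of each of the 8 genes, as the pooled mean normalized count per kilobase on a log axis, at 26 °C (circles) and 20 °C (squares), with lines for the median protein-coding gene. cgh-1 is highest and ife-4 lowest in both sets, and ife-2, ife-5 and ife-4 are the genes whose circle lies above the square.

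Of the eIF4E genes, ife-3 and ife-1 were lower at 26 °C, whereas ife-2, ife-5 and ife-4 were higher, so that the close relatives ife-1 and ife-5 lay on opposite sides. Between the sets, a gene's mean was divided by the sum over all genes of its own set, because the tables of each temperature had been normalized separately. On this scale the 26 °C over 20 °C ratio was 0.656 for ife-3, 0.747 for ife-1, 1.49 for ife-5, 1.98 for ife-2 and 1.198 for ife-4.

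ife-3 encodes an eIF4E that prefers the monomethylated cap and is required for embryonic viability. It lies on the minus strand of chromosome V at 6584 to 7828 (WBcel235), with 3 annotated transcripts, the longest of 1115 nt in 4 exons. Its mean normalized count was 5359 at 26 °C and 8748 at 20 °C. It was the most abundant eIF4E mRNA in both sets, and ranked 521st at 26 °C and 332nd at 20 °C among 19985 protein-coding genes by level per kilobase. Its annotated end overlaps B0348.5 on the other strand by 51 nt. B0348.5 had mean normalized counts of 32.8 at 26 °C and 15.2 at 20 °C, far below those of ife-3.

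ife-1 encodes the eIF4E that binds the P granule protein PGL-1 and is needed for sperm and oocyte development. It lies on the plus strand of chromosome III at 13343417 to 13344618, and its longest transcript has 995 nt in 3 exons. It had a mean normalized count of 1605 at 26 °C and 2301 at 20 °C. The gene dro-1 overlaps ife-1 by 296 nt on the same strand, and it had 1139 at 26 °C and 1567 at 20 °C, a ratio of 0.779 close to that of ife-1. Reads from the shared stretch cannot be assigned to either gene by position, so the level of ife-1 is uncertain to that extent.

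ife-5, which is closely related to ife-1 and like it binds both kinds of cap, is on the plus strand of chromosome II at 12280660 to 12284139. Its longest transcript has 848 nt in 3 exons. The mean normalized count of ife-5 was 374 at 26 °C and 269 at 20 °C. Where 2 paralogues share sequence the counting may divide their reads, which was not tested. The next gene on its strand (WBGene00013269) ends 64 nt before ife-5 starts and had a ratio of 0.861, on the other side of 1 from ife-5.

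ife-2 encodes an eIF4E with a known role in somatic tissue, whose loss is known to lengthen lifespan. Whole worms were sampled, so its level here cannot be assigned to soma or germline. It is on the minus strand of chromosome X at 381385 to 382709, with a single annotated transcript of 835 nt in 4 exons. Its mean normalized count was 1312 at 26 °C and 708 at 20 °C, and it had the highest ratio of the 8 genes. By level per kilobase it ranked 1945th among protein-coding genes at 26 °C and 3835th at 20 °C.

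ife-4, the relative of mammalian 4EHP with known expression in neurons and muscle, is on the plus strand of chromosome X at 1104212 to 1106251. Its transcript has 850 nt in 4 exons. For ife-4 the mean normalized count was 132 at 26 °C and 118 at 20 °C. The ratio of 1.198 lay near the median of all genes tested, and relative to that median it was 1.04.

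The make-up of the eIF4E family does not depend on how the sets are scaled to each other, because it is formed within a set. ife-3 made up 56.0% of the summed level per kilobase of the 5 genes at 26 °C and 68.5% at 20 °C. ife-2 made up 18.3% at 26 °C and 7.40% at 20 °C, a difference of 10.9 percentage points. ife-1 held 18.8% at 26 °C and 20.2% at 20 °C, while ife-5 held 5.14% and ife-4 1.81% at 26 °C, against 2.77% and 1.21% at 20 °C. The ratio of ife-2 to ife-3 was 0.327 at 26 °C and 0.108 at 20 °C, or 3.02 times as high in the 26 °C set. The ratio of ife-1 to ife-3 was 0.336 at 26 °C and 0.295 at 20 °C. The summed level of the family per kilobase was 8587 at 26 °C and 11463 at 20 °C, and as a share of all counts the 26 °C sum was 0.802 of the 20 °C sum.

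**Figure D2:**
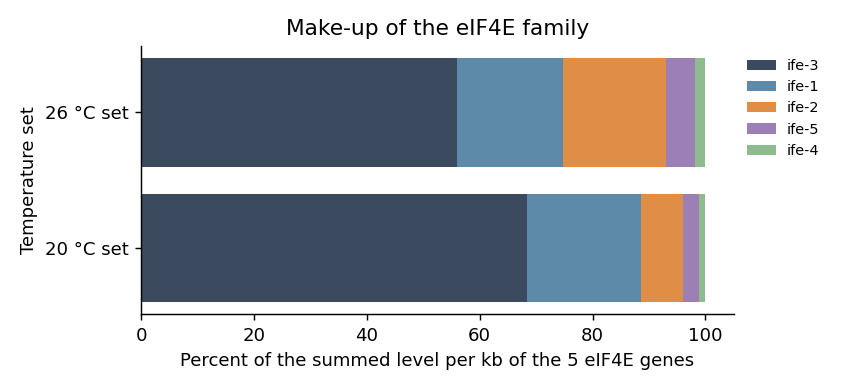
Percent of the summed level per kilobase of the 5 eIF4E genes that each gene holds, in the 26 °C set (upper bar) and the 20 °C set (lower bar). The ife-2 segment is 18.3% wide at 26 °C and 7.40% at 20 °C, and the ife-3 segment is 56.0% and 68.5%.

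The 3 repressor genes were all lower at 26 °C, with ratios between 0.667 and 0.713. CGH-1, the nematode DDX6 helicase, binds silenced maternal mRNAs and protects a part of them from decay. cgh-1 is on the minus strand of chromosome III at 7495320 to 7497832, and its transcript has 2273 nt in 4 exons. Its mean normalized count was 53517 at 26 °C and 85874 at 20 °C, and its ratio was 0.667. By level per kilobase it ranked 120th among protein-coding genes at 26 °C and 85th at 20 °C. The small nucleolar RNA gene C07H6.10 lies within its bounds on the same strand and had a mean normalized count of only 10.1 at 26 °C.

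CAR-1, a protein of the LSM14 family that binds CGH-1 and is needed for embryonic cell division, is encoded on the plus strand of chromosome I at 12904470 to 12906040. Its transcript has 1422 nt in 4 exons. car-1 had a mean normalized count of 31041 at 26 °C and 48118 at 20 °C, and its ratio was 0.691. It ranked 131st by level per kilobase at 26 °C and 98th at 20 °C, close behind cgh-1.

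IFET-1, the nematode relative of 4E-T, is an eIF4E-binding protein that represses translation in the germline. ifet-1 is on the minus strand of chromosome III at 4471411 to 4475150, and with 3317 nt in 10 exons it has the longest transcript of the 8 genes. The mean normalized count of ifet-1 was 22967 at 26 °C and 34495 at 20 °C, and its ratio was 0.713.

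Within a set, the repressors kept nearly the same proportion to each other and to ife-3. The ratio of cgh-1 to car-1 was 1.08 at 26 °C and 1.12 at 20 °C. The ratio of ifet-1 to cgh-1 was 0.294 at 26 °C and 0.275 at 20 °C, and that of ifet-1 to ife-3 was 1.44 at 26 °C and 1.33 at 20 °C. The ratio of cgh-1 to ife-3 was 4.90 at 26 °C and 4.82 at 20 °C. These quotients differed by at most 1.09 times between the sets, against 3.02 times for ife-2 to ife-3.

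The 8 genes were then set beside all genes (the distribution of ratios over all genes tested). Among 14780 genes whose mean reached 10 normalized counts in either set, the median ratio was 1.15, a shift of 0.20 on the log2 scale. A ratio below 1 was found in 5 of the 8 genes and in 36.9% of all genes. The 5 were ife-3, cgh-1, car-1, ifet-1 and ife-1, and between 8.90% and 13.4% of all genes tested had a lower ratio than they had. Relative to the median they lay between -0.81 (ife-3) and -0.62 (ife-1) on the log2 scale. ife-2 lay 0.79 and ife-5 0.37 above it, and 82.4% and 68.2% of all genes had a lower ratio. A 1.5-fold higher share at 26 °C was found for 1 of the 8 genes, ife-2, and for 31.3% of all genes. A 1.5-fold lower share was found for 1 gene, ife-3, and for 9.30% of all genes. cgh-1, at 0.667, was just short of that limit, and on the scale of the deposited means 4 of the 8 were lower by 1.5-fold or more. The share of all genes lower by as much with the deposited means was not computed. In either set 4663 genes reached a mean of 1000, as ife-2 did at 26 °C and the 5 genes with a ratio below 1 did in both sets. Their median ratio was 0.995, and 51.1% of them had a ratio below 1, 4.29% were lower and 9.50% were higher by 1.5-fold or more.

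**Figure D3:**
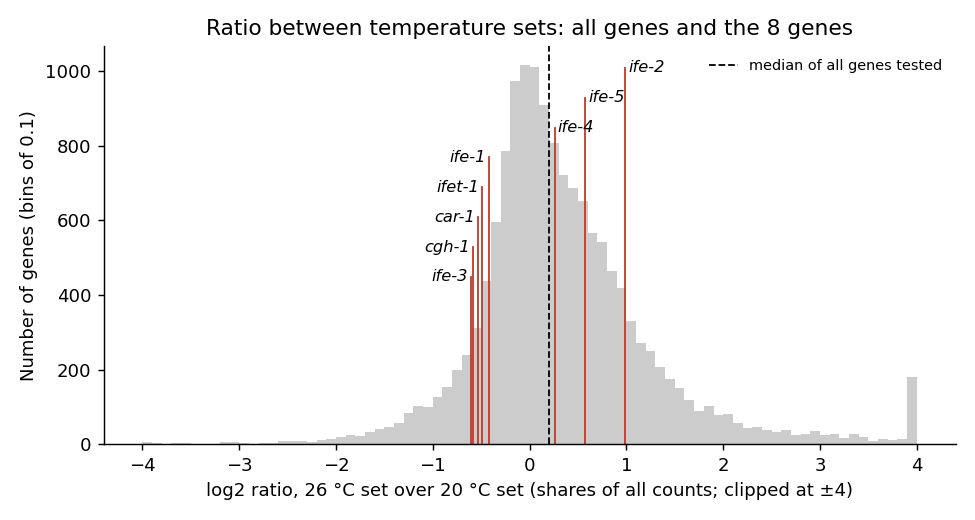
Number of genes by log2 ratio of the 26 °C share over the 20 °C share, for the 14780 genes tested, with a line for each of the 8 genes and a dashed line for the median of all genes. ife-3, cgh-1, car-1, ifet-1 and ife-1 lie close together on the lower side, and ife-2 lies farthest on the higher side.

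Other genes of the pathway were taken from 3 lists of translation initiation, mRNA decay and germline RNA regulation (the plot of ratios by gene list). Their counts stand beside the 51.1% of genes with a ratio below 1 and the 4.29% lower by 1.5-fold or more among genes with a mean of at least 1000, since 13 of 13, 11 of 17 and 20 of 20 of the listed genes found reached that mean. Of the 13 genes listed under the cap-binding complex and initiation, 12 had a ratio below 1, with a median of 0.788. By level per kilobase at 20 °C the highest was the poly(A)-binding protein gene pab-1, with 31244 at 26 °C and 38628 at 20 °C, and a ratio of 0.866. The lowest was its paralogue pab-2, with 1532 at 26 °C and 1127 at 20 °C, which also had the highest ratio of the list (1.45). The lowest ratio was that of iff-1 (0.570), a germline gene of eIF5A, which acts mainly in elongation and is not part of the cap-binding complex. Lower by 1.5-fold or more were 2 of the 13 genes, iff-1 among them, and 0 were higher by as much.

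Of the 18 genes of mRNA decay and repression, 17 were found by symbol, and 12 of these had a ratio below 1, with a median of 0.915 (16 with the deposited means). patr-1, whose protein is a partner of CGH-1 in decapping, was the highest by level per kilobase, with 5130 at 26 °C and 5379 at 20 °C. lsm-4 was the lowest, with 311 at 26 °C and 333 at 20 °C. 1 gene, lsm-3 (0.648), was lower by 1.5-fold or more and 0 were higher by as much. With mean normalized counts of 604 at 26 °C and 998 at 20 °C, lsm-3 is not among the genes behind the 4.29%. Among genes with a mean of at least 10, the share lower by as much was 9.30%. Of the 20 genes listed as germline RNA regulators, 15 had a ratio below 1, with a median of 0.893 (18 with the deposited means, and 20 relative to the median of all genes). The highest was cey-2, which encodes a Y-box protein of the germline, with 20581 at 26 °C and 50450 at 20 °C and a ratio of 0.437. The lowest was fbf-2, with 590 at 26 °C and 849 at 20 °C. Here 2 genes were lower by 1.5-fold or more and 0 were higher by as much. This list is broad, as it includes the receptor gene glp-1 (1.04) and the genes cey-1 (1.09) and cey-4 (1.11). The counts of 16, 18 and 20 under other scalings have no share of all genes beside them. The 51.1% was found with shares of all counts only. Genes with a mean of at least 1000 had a median ratio of 0.995, itself below the 1.15 of all genes tested.

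Whole worms hold several tissues, and in such samples fewer cells of a type and less RNA per cell cannot be told apart. Germline markers were mostly lower in the 26 °C set, as ife-3, ife-1 and the repressors were and ife-5, ife-2 and ife-4 were not. Markers of somatic tissues were mostly higher, but so were 9323 of the 14780 genes tested, whose median ratio was 1.15. Among genes with a mean of at least 1000, 51.1% had a ratio below 1. The 5 germline markers (glh-1, pgl-1, gld-1, htp-1 and syp-1) took 2009 of every 1000000 counts at 26 °C and 2634 at 20 °C, with 4 of 5 ratios below 1 and syp-1 at 1.05. Of these markers 3 (glh-1, pgl-1 and gld-1) are also among the 20 genes listed as germline RNA regulators, so the lists are not separate. The 5 sperm markers took 35.2 of every 1000000 at 26 °C and 88.2 at 20 °C, with 4 of 5 below 1 and spe-11 at 1.05. The lower sum came from the 3 msp genes, which have near-identical copies and uncertain single values. spe-9 and spe-11 together took 6.65 of every 1000000 at 26 °C and 6.68 at 20 °C. The 5 intestine markers took 99319 of every 1000000 at 26 °C and 83767 at 20 °C, with 1 of 5 ratios below 1 (vit-5, 0.936). Nearly all of this sum came from the vitellogenin genes vit-2, vit-5 and vit-6. The other markers, elt-2 and ges-1, had mean normalized counts of only 371 and 1315 at 26 °C. The markers of body wall muscle (3 genes), neurons (4 genes) and hypodermis (3 genes) all had ratios above 1 as shares of all counts, but unc-54 was below 1 with the deposited means and unc-54 and unc-15 were below 1 relative to the median of all genes. The sums of the muscle, neuron and hypodermis markers were 3040, 123 and 942 of every 1000000 at 26 °C, against 2743, 98.7 and 709 at 20 °C. No marker was at 0 in either set, and dpy-7 and rol-6 were the lowest, with mean normalized counts of 20.0 and 24.7 at 26 °C and of 8.10 and 7.44 at 20 °C. The part of these shifts in the values of the 8 genes was not tested.

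**Figure D4:**
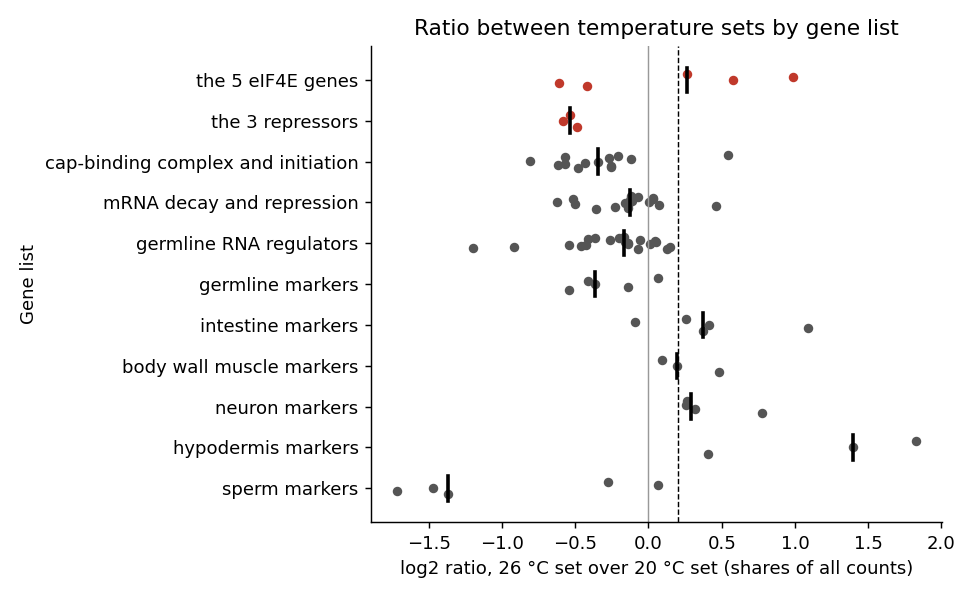
log2 ratio of the 26 °C share over the 20 °C share for each gene of each list, with a bar at the list's median, a solid line at 0 and a dashed line at the median of all genes tested. The 3 repressors lie between ratios of 0.667 and 0.713, near the lower germline markers, and the 5 eIF4E genes spread from 0.656 to 1.98.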

How the data were processed

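Per the labels, RNA of 24 libraries (3 in each of 8 groups) was mapped to WBcel235. The authors processed the reads with a core facility pipeline based on nf-core/rnaseq and ran DESeq2. The aligner and the counting tool are not given in the sources used here. The authors deposited 10 tables. The column used is the mean normalized count, a signal pooled by the authors over the libraries of a fit. It has no SD, and there are 0 columns of values per library, so the depth of each library is unknown. Equal means among tables showed 3 fits, of 26 °C, 20 °C and both temperatures. The other columns hold the authors' own comparisons (a fold change, its error and shrunken form, a statistic, p-values and a sign) and were not used.

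Positions and lengths came from Ensembl release 115 (WBcel235), which held all 46926 identifiers and may differ from the one the authors used. Sequences of these genes were not analysed here. Levels were divided by the length of the longest transcript. Between temperatures, means were divided by the sum over their set. Genes needed a mean of at least 10 in either set, and a 1.5-fold ratio counted as past the limit. No test was made, as pooled means hold no replicates. Python 3.11.15, numpy 2.4.6, pandas 2.3.3 and matplotlib 3.10.9 were used. Only the common scale of the temperature sets was checked on simulated means, built so that the joint mean was an exact mix of both sets. Levels, ranks, the family make-up and the gene lists were not tested in this way. From each list, the text names the genes with the highest and lowest level per kilobase at 20 °C, for initiation genes also the extreme ratios, and further genes chosen after their values were seen (syp-1, spe-9, spe-11, unc-54, unc-15, vit-2, vit-5, vit-6, elt-2, ges-1, dpy-7, rol-6, glp-1, cey-1, cey-4 and lsm-3). The 8 genes and the lists were chosen with earlier results of these data known. The make-up of the eIF4E family and the gene pairs were not part of the plan made beforehand. Alternatives were other scalings, lengths, minimum means and a 1.2-fold limit.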

Additional observations from a re-analysis of the deposited data

How the results depend on the processing

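The order of the 8 genes by level per kilobase was unchanged in both sets with the coding length, with no length and with the fit of both temperatures. That fit pools the libraries of both sets, which already had the same order, so it could hardly have given another. All 32 ratios of the 8 genes under 4 other scalings stayed on the same side of 1 as with shares of all counts. This is a weak check, because each scaling multiplies all 8 ratios by the same factor. Only a ratio near 1, such as that of ife-4, could have changed sides. The scale derived from the fit of both temperatures and centring on the median gave nearly the same values (0.649 for ife-1 with each). The number of genes past 1.5-fold did depend on the scaling. Of the 8 genes, 1 was lower by 1.5-fold or more with shares of all counts, 4 with the deposited means, 5 on the common scale derived from the fit of both temperatures, 5 when centred on the median of all genes, and 0 when vitellogenin genes were left out of the sum. Without the vitellogenin genes 2 were higher by 1.5-fold or more, since ife-5 joined ife-2. With a limit of 1.2-fold, 5 were lower and 2 higher. The share of all genes was not computed for the other scalings or for 1.2-fold. A change of scaling moves every gene, so these counts are not read as a result about the 8 genes. The shares of all genes higher and lower by 1.5-fold were 9.50% and 4.29% at a minimum mean of 1000, which was chosen after seeing the data, as were the other scalings of the gene lists and the sperm sum without msp genes. The common scale is approximate, as it gave 64.7% of genes to within 5% of their joint mean. Among the 8 genes the largest deviation from the joint mean was 7.07%, so the scale is approximate for them too. The ratio of ife-4 ranged from 1.04 to 1.22 over the scalings. With coding lengths, ife-2 made up 15.8% of the eIF4E family at 26 °C and 6.24% at 20 °C. No paired analysis was possible because the columns used are pooled over libraries. For the same reason leaving out a replicate and a replicate block were not run, and alignments of the eIF4E proteins were not run. The pooled means do not show which genotype carries a difference between the sets.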

Other observations

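Related genes of the fixed lists differed in their ratio of the 26 °C over the 20 °C share. The germline Y-box genes cey-2 and cey-3 lay below all 8 genes described above, with 0.437 for cey-2 and 0.529 for cey-3, while their relatives cey-1 and cey-4 had 1.09 and 1.11, both below 1 when set relative to the median of all genes. The decapping enzyme gene dcap-2 had a ratio of 1.38, with mean normalized counts of 3545 at 26 °C and 2758 at 20 °C, whereas its activator dcap-1 had 0.856, with 2755 at 26 °C and 3448 at 20 °C. These genes were picked after their values were seen, and the ratios are descriptions of pooled means.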
